A study of Mus musculus with 12 samples.

Results

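Insulin and the insulin-like growth factors (IGFs) act through a short chain of proteins, and 10 genes of that chain were examined in mouse 3T3-L1 cells: the growth factors Igf1 and Igf2, the binding protein gene Igfbp4, the receptor genes Insr and Igf1r, the receptor substrate genes Irs1 and Irs2, the PI3-kinase subunit gene Pik3r1 and the kinase genes Akt1 and Akt2. Members were all non-control array probes whose transcript accession belongs to one of these genes. The rule found 21 probes of 9 genes among 41174 non-control probes, and no probe carried an accession listed for Irs2, which was not analysed here. Of the 21 probes, 20 were well above background on all 12 arrays, and the remaining probe, A_52_P6490 of Insr, was so on 8 arrays.

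Insulin, IGF1 and IGF2 bind receptor tyrosine kinases at the cell surface, and IGF binding proteins hold IGFs in the medium and modulate their access to the receptor. The active receptors phosphorylate IRS proteins, which recruit PI3-kinase through its regulatory subunit, and the lipid product brings Akt to the membrane, from where glucose uptake, protein synthesis and FOXO factors are controlled. In preadipocytes insulin is a standard component of the mixture that starts adipogenesis, and at high concentration it also binds the IGF1 receptor.

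3T3-L1 is an established mouse embryonic fibroblast line that becomes adipocyte-like after hormonal induction. Untreated cells (0 h) were kept in medium with 10% newborn bovine serum, and induced cells were taken 6 h after they had received 0.5 mM isobutylmethylxanthine (IBMX, a phosphodiesterase inhibitor), 1 µM dexamethasone (a glucocorticoid) and 5 µg/ml insulin in medium with 10% fetal bovine serum, so the hormones and the kind of serum changed together and their shares cannot be told apart. Each lysate was separated on a sucrose gradient, fractions 5 to 7 were pooled as the non-polysomal part (np) and fractions 9 to 11 as the polysomal part (p), and each pool was hybridised to 1 one-colour array. There were 4 groups (np and p at 0 h and at 6 h) of 3 replicates each, which applies to every mean, standard deviation (SD) and test below, and the arrays of a replicate number shared a slide.

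The levels are log2 background-subtracted signals, shifted on each array by the mean of 10 spike-in transcripts that were added to each pool before RNA extraction, so levels compare a probe between groups and not a probe with another probe. In limma, 4 differences were tested over all probes: the time change in polysomal RNA (p6 - p0), the time change in non-polysomal RNA (np6 - np0), their difference M = (p6 - np6) - (p0 - np0), and polysomal against non-polysomal RNA at 0 h (p0 - np0). A probe was called when its Benjamini-Hochberg adjusted p over all probes was under 0.05 and the difference exceeded 1 on the log2 scale, which is 2-fold; "rose" and "fell" are used below for any difference with an adjusted p under 0.05. In a bulk lysate, fewer cells of a type and less RNA per cell cannot be told apart. Replicates of a group correlated at r = 0.996 to 0.998 over the probes well above background on all arrays, and the median SD between replicates was 0.092 for the member probes.

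The scaling between arrays matters for these genes. With the spike-in offset the median over all probes was 0.54 for p6 - p0, 0.04 for np6 - np0, 0.49 for M and 0.15 for p0 - np0, and the difference from that median is given below as the value relative to all probes. Scaling to the 75th percentile of each array moved these medians to 0.05, -0.02, 0.06 and -0.74. Of all called probes, the share called higher was 79.3% for p6 - p0 and became 46.8% with the 75th percentile and 45.5% after quantile normalization. For M it went from 90.1% to 51.9% and 44.6%, and for p0 - np0 from 73.5% to 30.4% and 54.5%, whereas for np6 - np0 it was 50.1%, 44.3% and 48.5%.

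Of the 21 member probes, 5 were called higher and 2 lower in p6 - p0, where 19.2% of all probes were called higher and 5% lower, so the shares were not far from those of all probes. In np6 - np0, 4 were called higher and 1 lower, beside 8.12% and 8.11% of all probes. For M, 1 probe was called higher and 0 lower, beside 12.1% and 1.32%. At an adjusted p under 0.05, 7 member probes had a positive and 3 a negative M. Of the 20366 probes well above background on all arrays, 10900 were positive and 1288 negative at that limit. In p0 - np0, 12 were called higher and 0 lower, beside 27.3% and 9.83%. At an adjusted p under 0.05, 17 were positive and 2 negative, beside 13030 and 4292 of the same 20366 probes. Among the 20366 probes well above background on all arrays, as nearly all member probes were, 46.4% were called higher in p0 - np0 and 12% lower. Of the same probes, 28.6% were called higher and 6.01% lower in p6 - p0. In np6 - np0 these shares were 12.4% and 10.6%, and for M 17.5% and 1.23%. The member medians were 0.26 (p6 - p0), 0.26 (np6 - np0), 0.17 (M) and 1.08 (p0 - np0), and over those 20366 probes the median of p0 - np0 was 0.88. Over time the calls fell on Igfbp4, Igf1, Irs1, Pik3r1 and 1 of the Akt1 probes, and between the fractions at 0 h on all 9 probes of Insr, Igf1r and Pik3r1 and on 1 probe each of Irs1, Igf2 and Igfbp4.

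**Figure D1:**
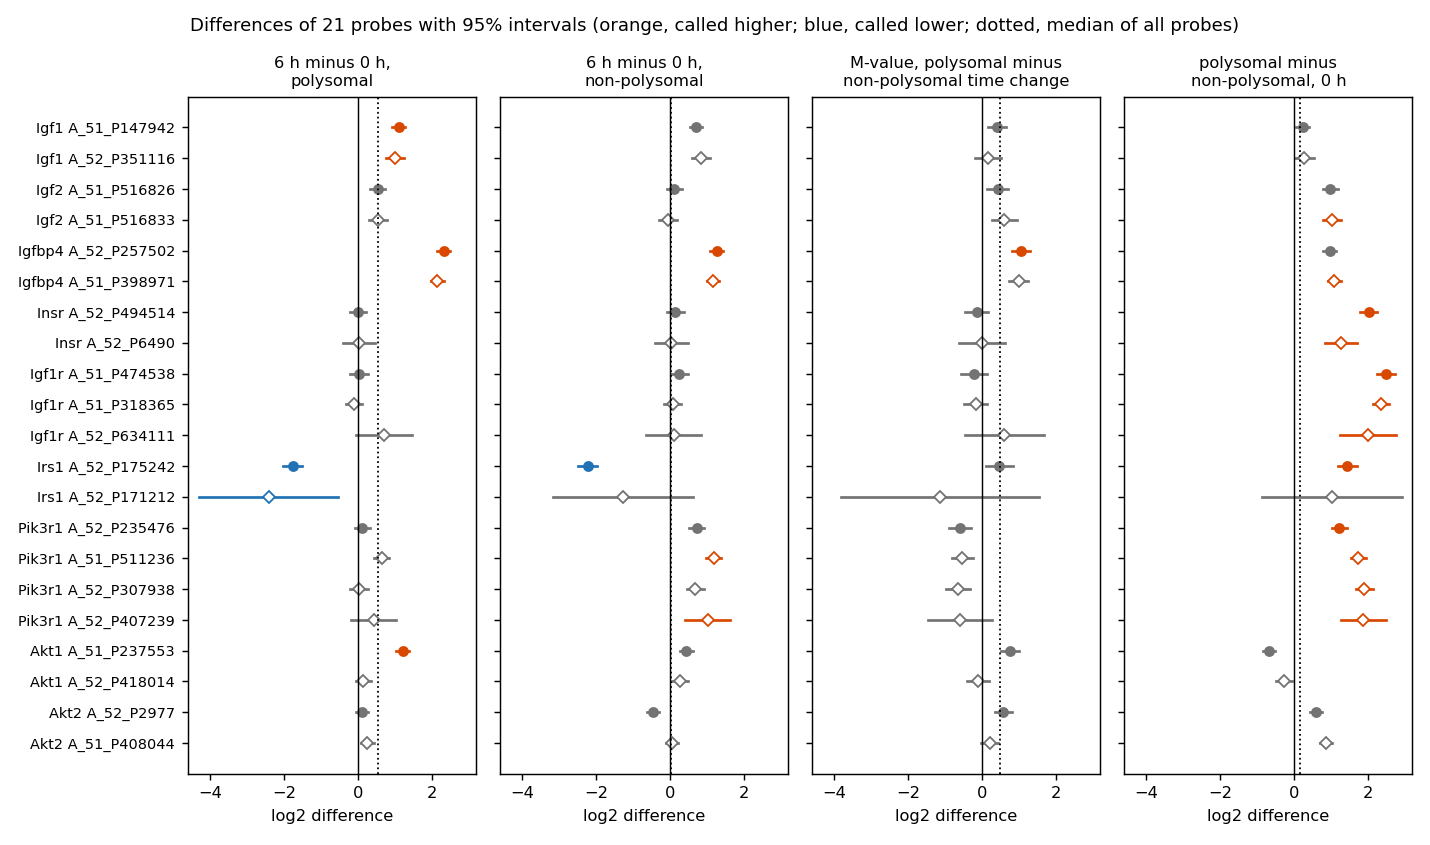
Each row is 1 of the 21 probes, and the 4 panels give its log2 difference with the 95% interval in the 4 tested comparisons; filled circles are the primary probe of a gene, open diamonds its other probes, and the dotted line is the median of all probes. Both Igfbp4 probes lie at the right in the time comparisons (2.33 and 2.15 in polysomal RNA), the primary Irs1 probe at the left (-1.76), and the receptor probes at the right in the comparison of fractions at 0 h.

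Igf1 encodes the growth factor IGF1, which preadipocytes secrete and also respond to. Its primary probe (A_51_P147942, the brighter of its pair) had non-polysomal levels of 8.40, 8.49 and 8.41 at 0 h and 9.19, 9.12 and 9.09 at 6 h. The polysomal levels were 8.61, 8.75 and 8.63 at 0 h and 9.73, 9.69 and 9.87 at 6 h. No group overlapped another, and all 6 h arrays were above all 0 h arrays. Igf1 rose 2.15-fold in polysomal RNA (log2 1.1, SE 0.07, adjusted p = 6.7e-07) and 1.63-fold in non-polysomal RNA (0.70, SE 0.07, adjusted p = 2.7e-05). The other probe, A_52_P351116, gave 1.01 and 0.84 (SE 0.11 each). Scaled to the 75th percentile the polysomal rise of the primary probe came to 0.62, and after quantile normalization to 0.59, under 2-fold but with adjusted p values of 1.7e-06 and 6.6e-07. M was 0.40 (adjusted p = 0.014) but was -0.02 and -0.03 under these scalings. The distribution at 0 h was nearly even, p0 - np0 being 0.23 (adjusted p = 0.025), and it became -0.66 and -0.69 under the same scalings.

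Igf2 encodes the fetal growth factor IGF2, an imprinted gene. Its primary probe (A_51_P516826) had non-polysomal levels of 6.04, 6.08 and 5.99 at 0 h and 6.16, 6.19 and 6.11 at 6 h. Its polysomal levels were 6.86, 7.05 and 7.15 at 0 h and 7.65, 7.43 and 7.60 at 6 h. The polysomal arrays lay above all non-polysomal arrays, and within polysomal RNA the 6 h arrays lay above the 0 h arrays. The polysomal rise was 0.54 (SE 0.09, adjusted p = 0.00058), equal to the median of all probes, while np6 - np0 was 0.12 (adjusted p = 0.39). The other Igf2 probe, A_51_P516833, gave 0.54 and -0.06. At 0 h the polysomal RNA of Igf2 was higher by 0.98 (adjusted p = 4.2e-06) and 1.03 (adjusted p = 1.1e-05) on the probe pair. M was 0.42 (adjusted p = 0.029) and 0.61 (adjusted p = 0.012) in the same order. All 3 differences were close to 0 for the primary probe when scaled to the 75th percentile, with a p6 - p0 of 0.05, an M of 0.00 and a p0 - np0 of 0.09.

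Igfbp4 encodes IGF binding protein 4, a secreted protein that binds IGFs and in most settings restrains their action. It had the largest rise among the members. Its primary probe (A_52_P257502) read 8.07, 8.14 and 8.16 in non-polysomal RNA at 0 h and 9.36, 9.37 and 9.43 at 6 h. In polysomal RNA it read 8.96, 9.20 and 9.09 at 0 h and 11.36, 11.37 and 11.49 at 6 h. The 4 groups were fully separate, and the 6 h polysomal arrays stood about as far above the 0 h polysomal arrays on every slide. Polysomal Igfbp4 rose 5.02-fold (2.33, SE 0.08, adjusted p = 6.8e-09), with within-slide values of 2.40, 2.18 and 2.40. Non-polysomal Igfbp4 rose 2.40-fold (1.26, SE 0.08, adjusted p = 5.8e-07). Relative to all probes the polysomal rise was 1.79, above that of 96.4% of the probes well above background on all arrays.

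The rise of Igfbp4 was larger in polysomal than in non-polysomal RNA, and it was the only member called for M (1.06, SE 0.11, adjusted p = 7.2e-05, 0.58 relative to all probes). The other probe, A_51_P398971, gave 2.15 in polysomal RNA, 1.16 in non-polysomal RNA and an M of 0.99 (adjusted p = 0.00011), just under the limit of 1. The polysomal over non-polysomal difference of the primary probe was 0.96 ± 0.09 (SD) at 0 h and 2.02 ± 0.03 at 6 h. With the 75th percentile these came to 0.07 and 0.71, and with quantile scaling to 0.06 and 0.60. Scaled to the 75th percentile M of the primary probe came to 0.64, and after quantile normalization to 0.54, which kept an adjusted p of 0.00017 and 0.00027 but not the 2-fold limit, so 0 member probes were then called higher for M. M of this probe ranked above that of 84.8% of the probes well above background on all arrays.

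Insr encodes the insulin receptor. Its primary probe (A_52_P494514) read 5.33, 5.27 and 5.44 in non-polysomal RNA at 0 h and 5.55, 5.41 and 5.53 at 6 h. The polysomal levels of this probe were 7.22, 7.43 and 7.42 at 0 h and 7.39, 7.21 and 7.50 at 6 h. The times overlapped within each fraction, and the fractions were far apart at both times. At 0 h Insr was 4.03-fold higher in polysomal RNA (2.01, SE 0.10, adjusted p = 2.6e-08). The time change was 0.01 in polysomal RNA (95% interval -0.21 to 0.23, adjusted p = 0.94) and 0.15 in non-polysomal RNA (-0.07 to 0.37, adjusted p = 0.29). Relative to all probes the polysomal time change was -0.53. With 75th percentile and quantile scaling it became -0.48 (adjusted p = 0.00046) and -0.29 (adjusted p = 0.026). The dim second probe, A_52_P6490, passed the background mark on 1 of 3 arrays in either non-polysomal group and gave a p0 - np0 of 1.26 (adjusted p = 0.00024).

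Igf1r encodes the IGF1 receptor, which also binds insulin weakly. Its primary probe (A_51_P474538) read 7.06, 7.26 and 6.97 in non-polysomal RNA at 0 h and 7.45, 7.34 and 7.26 at 6 h. Its polysomal arrays read 9.39, 9.70 and 9.62 at 0 h and 9.68, 9.55 and 9.59 at 6 h. As for Insr, the fractions were far apart, and the polysomal arrays of both times overlapped. The p0 - np0 difference was 2.48 (SE 0.11, adjusted p = 1.2e-08), or 5.56-fold, above that of 93.2% of the probes well above background on all arrays. A_51_P318365 gave 2.35 and A_52_P634111 gave 1.99 with an SE of 0.34, its 0 h non-polysomal replicate 3 reading 4.94 beside 3.58 and 3.29. The polysomal time change of the primary probe was 0.04 (95% interval -0.20 to 0.28), or -0.50 relative to all probes. It became -0.45 (adjusted p = 0.00052) and -0.46 (adjusted p = 0.00028) with 75th percentile and quantile scaling. M was -0.22 (adjusted p = 0.27) on the primary probe and -0.17 (adjusted p = 0.33) on A_51_P318365. The scaling decided its sign and whether its adjusted p was under 0.05, but on both probes its size stayed under 1, so it was never called. It was -0.64 (adjusted p = 0.0012) and -0.60 (adjusted p = 0.0022) with the 75th percentile and -0.68 (adjusted p = 0.00052) and -0.59 (adjusted p = 0.0023) with quantile scaling, but 0.35 (adjusted p = 0.034) and 0.48 (adjusted p = 0.0038) when arrays were scaled by a line fitted to the spike-ins. With that line the median M over all probes was 1.42, above both values.

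The polysomal excess at 0 h stayed called in every alternative run for 3 of the 5 receptor probes, Insr A_52_P494514 (range 1.12 to 2.08), Igf1r A_51_P474538 (1.59 to 2.57) and Igf1r A_51_P318365 (1.46 to 2.42), with an adjusted p of at most 5.0e-07 and a size over 1 in all 21 of them. The other Insr probe, A_52_P6490, came to 0.38 with 75th percentile scaling (adjusted p = 0.11), 0.41 with the authors' log2 values and 0.26 with normexp, and Igf1r A_52_P634111 came to 0.72 with normexp. At 6 h the difference was 1.87 ± 0.08 (SD) for the primary Insr probe and 2.26 ± 0.06 for the primary Igf1r probe, which came to 0.56 and 0.95 with the 75th percentile and to 0.87 and 0.96 with quantile scaling.

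Irs1 encodes insulin receptor substrate 1, the docking protein through which the active receptors reach PI3-kinase. It was the only member that fell more than 2-fold. Its primary probe (A_52_P175242) read 11.10, 11.19 and 10.97 in non-polysomal RNA at 0 h and 8.81, 8.87 and 8.89 at 6 h. In polysomal RNA it read 12.26, 12.64 and 12.68 at 0 h and 10.83, 10.64 and 10.82 at 6 h. The 4 groups did not overlap, and the 6 h polysomal arrays lay below even the 0 h non-polysomal arrays. Irs1 was 3.39-fold lower at 6 h in polysomal RNA (-1.76, SE 0.12, adjusted p = 6.0e-07) and 4.69-fold lower in non-polysomal RNA (-2.23, SE 0.12, adjusted p = 2.3e-07). Relative to all probes these were -2.30 and -2.27, and 1.77% and 0.865% of the probes well above background on all arrays had a lower value.

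The fall of Irs1 was seen on every slide, with within-slide values of -1.43, -2.00 and -1.85 in polysomal RNA and -2.28, -2.32 and -2.08 in non-polysomal RNA. Over the alternatives it ranged from -2.56 to -1.42 and from -2.35 to -2.00. M was 0.47 (95% interval 0.10 to 0.84, adjusted p = 0.052), or -0.02 relative to all probes, and it came to -0.23 (adjusted p = 0.19) after quantile normalization. At 0 h polysomal Irs1 was 2.71-fold higher than non-polysomal Irs1 (1.44, SE 0.12, adjusted p = 1.5e-06), which came to 0.55 with 75th percentile scaling. The second Irs1 probe, A_52_P171212, gave -2.42 in polysomal RNA (SE 0.84, adjusted p = 0.030). In non-polysomal RNA at 6 h it read 3.00, 3.55 and 7.05, so replicate 3 lay above the 0 h values of 5.98, 5.87 and 5.58, and np6 - np0 was -1.28 (adjusted p = 0.30). Without that array np6 - np0 of this probe was -2.54 (adjusted p = 6.4e-05). Leaving out any 1 of the 6 polysomal arrays took its polysomal fall past the limit, with adjusted p values of 0.055 to 0.088, and so did quantile normalization (adjusted p = 0.053) and the line fitted to the spike-ins (adjusted p = 0.11).

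**Figure D2:**
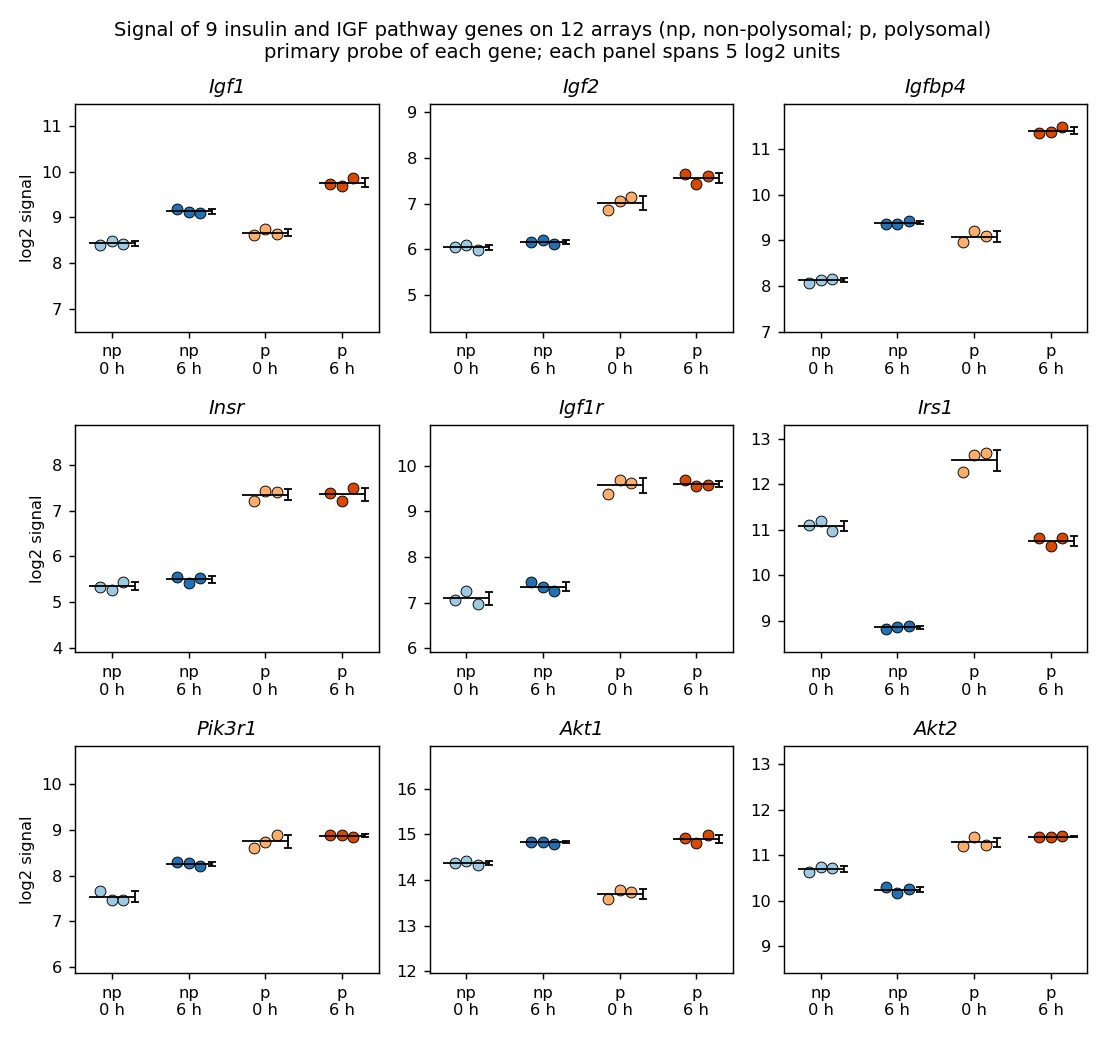
Log2 signal (y axis, each panel spanning the same width) of the primary probe of the 9 genes on the 12 arrays; points are single arrays, horizontal lines are group means and error bars are SD (n = 3). Irs1 is lower and Igfbp4 and Igf1 are higher at 6 h in both fractions, while Insr and Igf1r differ between fractions and, with the spike-in offset used here, hardly over time.

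The promoters of Igf1, Igfbp4 and Irs1 are shown because these are the genes whose polysomal time change was called on each of their probes. Each run is the 250 bases before the RefSeq transcript start (build GRCm38.p6), in the direction of transcription, with matches in capitals to any of these motifs on either strand: the cyclic AMP response element TGACGTCA and its core TGACG, which it contains, the glucocorticoid response half-site AGAACA, the FOXO site GTAAACA, the CCAAT box, the GC box GGGCGG and the TATA box TATAAA.
Irs1, chr1:82291440-82291689, minus strand: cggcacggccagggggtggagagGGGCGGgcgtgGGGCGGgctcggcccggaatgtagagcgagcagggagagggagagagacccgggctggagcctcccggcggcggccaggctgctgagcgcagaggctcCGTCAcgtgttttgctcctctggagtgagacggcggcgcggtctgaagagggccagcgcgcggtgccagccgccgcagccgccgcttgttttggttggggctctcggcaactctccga
Igfbp4, chr11:99040994-99041243, plus strand: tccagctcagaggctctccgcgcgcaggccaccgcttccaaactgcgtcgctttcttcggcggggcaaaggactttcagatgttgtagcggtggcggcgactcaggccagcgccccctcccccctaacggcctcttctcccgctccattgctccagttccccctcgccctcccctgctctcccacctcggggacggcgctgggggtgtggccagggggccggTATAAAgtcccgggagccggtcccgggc
Igf1, chr10:87860861-87861110, plus strand: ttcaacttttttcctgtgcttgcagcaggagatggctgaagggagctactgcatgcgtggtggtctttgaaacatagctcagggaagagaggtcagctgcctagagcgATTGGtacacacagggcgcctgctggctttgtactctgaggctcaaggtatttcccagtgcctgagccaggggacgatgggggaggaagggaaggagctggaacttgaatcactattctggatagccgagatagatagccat

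The Irs1 window, 72.4% G and C, held a pair of GC boxes at positions -227 and -216 from the start and a reverse TGACG core at -118. The Igfbp4 window, 69.2% G and C, held a TATA box at -28 and no other of these motifs. The Igf1 window, 52.8% G and C, held a reverse CCAAT box at -142. Of 32851 promoter windows of the same length, 1.55% held TGACGTCA, 17.8% TGACG, 16.1% AGAACA, 3.17% GTAAACA, 33.8% CCAAT, 32.7% GGGCGG and 12.4% TATAAA. The 17 windows listed covered 9 of the 10 genes, with Irs2 included and no window for Insr. Of these windows, 8 held a GC box, 5 TGACG, 4 CCAAT, 2 TATAAA, 1 AGAACA, 1 GTAAACA and 0 TGACGTCA. A match is a stretch of letters and not a site shown to be bound.

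Pik3r1 encodes the regulatory subunit that ties PI3-kinase to phosphorylated IRS proteins, and 4 probes carried its accession. The primary probe (A_52_P235476) read 7.67, 7.46 and 7.46 in non-polysomal RNA at 0 h and 8.29, 8.27 and 8.21 at 6 h. The polysomal arrays read 8.60, 8.74 and 8.90 at 0 h and 8.90, 8.89 and 8.84 at 6 h. The polysomal arrays of both times overlapped, whereas the non-polysomal arrays at 6 h were all above those at 0 h. Non-polysomal Pik3r1 rose by 0.72 (SE 0.09, adjusted p = 8.7e-05), and the other probes gave 1.19 (A_51_P511236), 0.69 (A_52_P307938) and 1.02 (A_52_P407239), all with an adjusted p under 0.05 and 2 of them over 2-fold. The polysomal time changes were 0.13, 0.65, 0.03 and 0.43 in the same order of probes, of which only the 0.65 of A_51_P511236 passed the test (adjusted p = 0.00012). With 75th percentile and quantile scaling the polysomal change was -0.36 and -0.33 for A_52_P235476 and -0.45 and -0.31 for A_52_P307938. That of A_51_P511236 came to 0.16 (adjusted p = 0.15) and 0.20 (adjusted p = 0.098), so it did not pass under these scalings.

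Among the M values of the members that passed the test, the negative ones were those of Pik3r1. M was -0.60 (adjusted p = 0.0048), -0.54 (adjusted p = 0.0076) and -0.66 (adjusted p = 0.0064) on A_52_P235476, A_51_P511236 and A_52_P307938, and -0.59 (adjusted p = 0.24) on the dimmer A_52_P407239. Between 3.41% and 4.97% of the probes well above background on all arrays had a lower M than these 4 probes. With 75th percentile scaling the M of the first 3 was -1.02, -0.96 and -1.08, but scaled by a line fitted to the spike-ins it came to 0.01, 0.09 and 0.04, so its sign against 0 depended on the scaling. The median M over all probes was 0.06 and 1.42 under these scalings. With the spike-in offset Pik3r1 RNA was higher in the polysomal fraction: p0 - np0 was 1.22, 1.74, 1.90 and 1.87 (A_52_P235476, A_51_P511236, A_52_P307938, A_52_P407239), all called, and at 6 h the difference was 0.62 ± 0.01, 1.20 ± 0.09, 1.25 ± 0.03 and 1.28 ± 0.19 (SD). With 75th percentile scaling p0 - np0 came to 0.33, 0.85, 1.01 and 0.98 in the same order, of which the 1.01 stayed called, and the 6 h difference turned to -0.69, -0.11, -0.064 and -0.031. After quantile normalization the 6 h values were -0.67, -0.081, 0.12 and 0.47, so the direction at 6 h depended on the scaling.

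**Figure D3:**
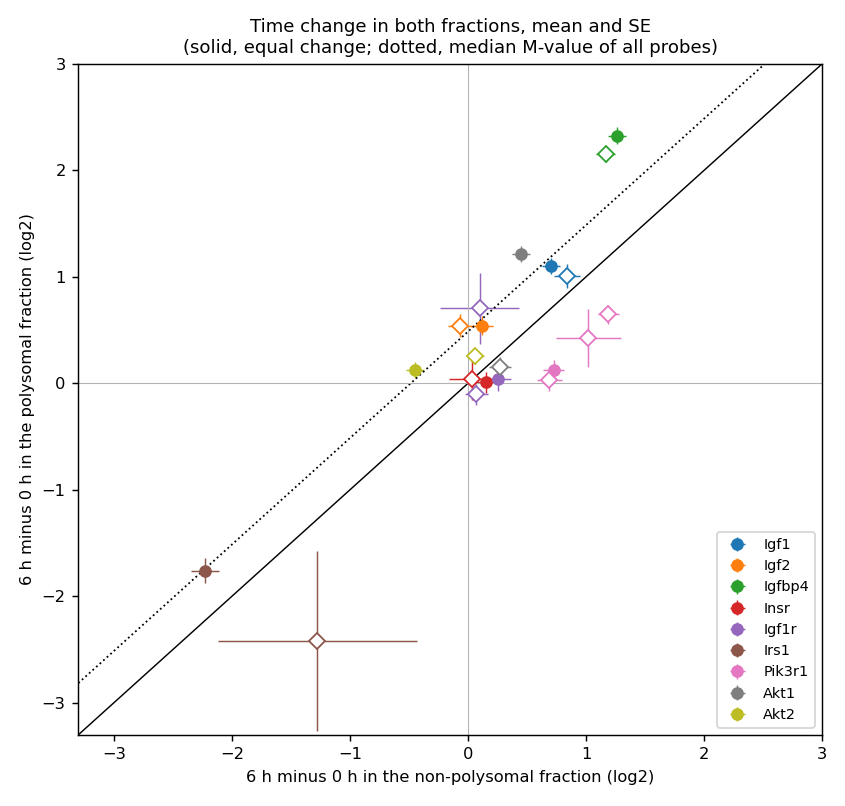
Time change (log2, mean and SE) in the polysomal fraction against that in the non-polysomal fraction for the 21 probes, filled for primary probes; on the solid line both changes are equal, and the dotted line is displaced by the median M of all probes, 0.49. Igfbp4 lies above the dotted line, the 4 Pik3r1 probes lie below the solid line, and the primary Irs1 probe lies on the dotted line at -2.23 and -1.76.

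Akt1 encodes the widely expressed Akt isoform, a kinase activated below PI3-kinase. Its primary probe (A_51_P237553) read 14.38, 14.43 and 14.33 in non-polysomal RNA at 0 h and 14.84, 14.83 and 14.80 at 6 h. In polysomal RNA it read 13.58, 13.78 and 13.73 at 0 h and 14.92, 14.82 and 14.98 at 6 h. At 0 h the polysomal arrays were below the non-polysomal arrays, and at 6 h both fractions overlapped. Akt1 rose 2.32-fold in polysomal RNA on this probe (1.21, SE 0.08, adjusted p = 3.7e-07) and by 0.45 in non-polysomal RNA (adjusted p = 0.00074), with an M of 0.77 (adjusted p = 0.00042). The other probe, A_52_P418014, disagreed: it gave 0.15 in polysomal RNA (adjusted p = 0.19), 0.27 in non-polysomal RNA (adjusted p = 0.044) and an M of -0.12 (adjusted p = 0.50). The polysomal rise of the primary probe came to 0.73 when scaled to the 75th percentile and to 0.21 after quantile normalization, and its M to 0.34 (adjusted p = 0.0017) and to 0.09 (adjusted p = 0.29). On both probes Akt1 was the member with a negative p0 - np0, -0.68 (adjusted p = 1.7e-05) and -0.28 (adjusted p = 0.031), and the sign stayed negative in all 21 alternatives.

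Akt2 encodes the isoform tied most closely to insulin-driven glucose uptake in fat and muscle. Its primary probe (A_52_P2977) read 10.63, 10.75 and 10.71 in non-polysomal RNA at 0 h and 10.31, 10.18 and 10.25 at 6 h. Polysomal levels were 11.21, 11.40 and 11.23 at 0 h and 11.39, 11.40 and 11.41 at 6 h. The non-polysomal arrays separated by time and the polysomal arrays overlapped. Non-polysomal Akt2 fell by 0.45 (SE 0.07, adjusted p = 0.0006), while the polysomal change was 0.12 (adjusted p = 0.18) and became -0.36 and -0.58 with 75th percentile and quantile scaling. M was 0.57 (adjusted p = 0.002, 0.09 relative to all probes), 0.15 and -0.01 under those scalings. The second probe, A_51_P408044, gave a non-polysomal change of 0.06 (adjusted p = 0.66) and an M of 0.20 (adjusted p = 0.15). At 0 h p0 - np0 was 0.58 and 0.86 on the probe pair, and both were negative with 75th percentile scaling (-0.30 and -0.03).

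**Figure D4:**
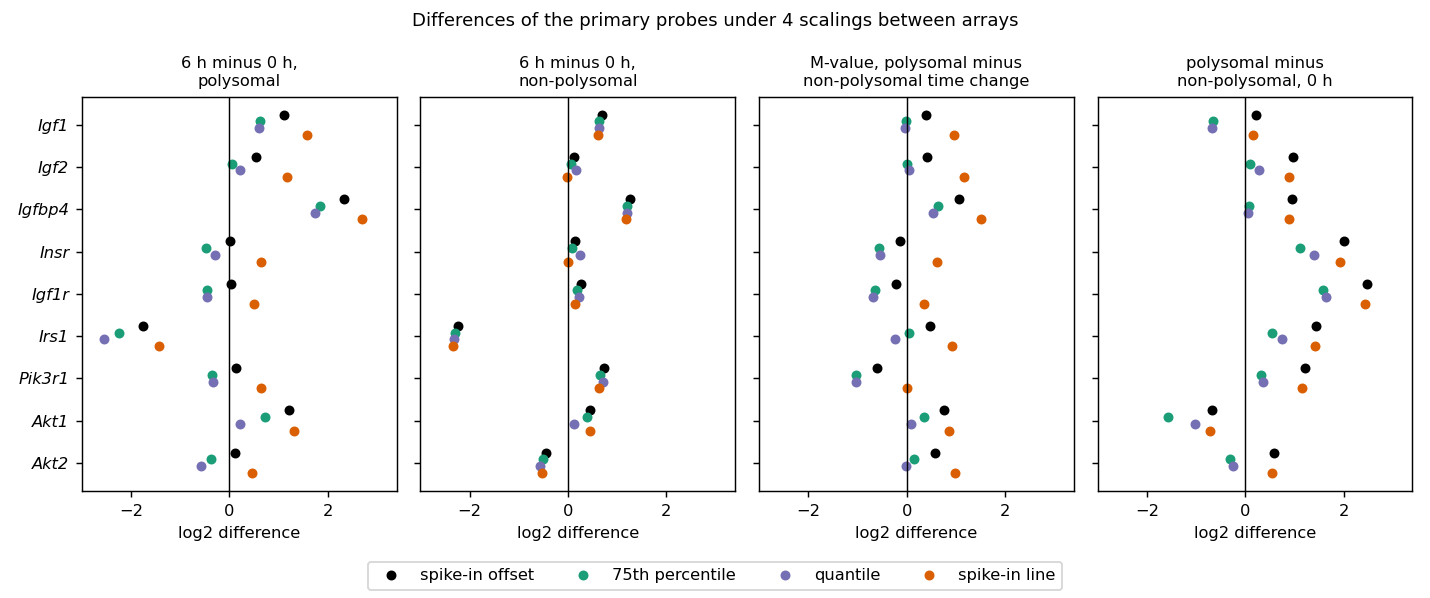
Log2 differences of the primary probe of the 9 genes in the 4 comparisons under the spike-in offset and 3 other scalings between arrays. The non-polysomal time changes move least with the scaling, and in polysomal RNA Irs1, Igf1, Igf2, Igfbp4 and Akt1 keep 1 sign over the 4 scalings while Insr, Igf1r, Pik3r1 and Akt2 do not.

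The rest of the pathway was described from a list of 77 genes, 76 of which had a probe. In p6 - p0, 20 were called higher and 4 lower (median 0.44), beside 19.2% and 5% of all probes. In np6 - np0 the counts were 12 and 7 (median 0.07), beside 8.12% and 8.11%. For M, 8 were called higher and 1 lower (median 0.39), beside 12.1% and 1.32%. For p0 - np0 the counts were 40 and 5 (median 1.08), beside 27.3% and 9.83%. Of the probes well above background on all arrays, as 69 of the 76 genes were, 46.4% were called higher in p0 - np0 and 12% lower. For p6 - p0 these shares were 28.6% and 6.01%, for np6 - np0 12.4% and 10.6%, and for M 17.5% and 1.23%. Among metabolic effectors, Hk2 (hexokinase 2, which phosphorylates glucose) was 24.1-fold higher at 6 h in polysomal RNA and 22.3-fold in non-polysomal RNA (4.59 and 4.48), and Tbc1d1, a Rab GTPase-activating protein phosphorylated by Akt, rose by 3.46 and 2.28. Pde3b, the phosphodiesterase through which insulin opposes lipolysis, rose by 1.93 in polysomal RNA, and Sgk1, a kinase related to Akt and a known glucocorticoid target, by 1.91 and 1.74. Of the 7 metabolic effectors 4 were called higher in polysomal RNA, of the 9 kinases below PI3-kinase 2, and of the 6 other PI3-kinase subunit genes 0, beside 19.2% of all probes.

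Of the 13 inhibitors and phosphatases on the list, 4 were called higher and 4 lower in polysomal RNA, where 19.2% of all probes were called higher and 5% lower. With the other scalings 9 (75th percentile) and 7 (quantile) genes of the whole list were called lower, instead of 4. Of all 41173 probes tested, 4073 and 3843 were called lower under these scalings, instead of 2058. Inppl1, which encodes the phosphatase SHIP2, was lower at 6 h by -1.93 in polysomal and by -4.34 in non-polysomal RNA, and it had the highest M of the list, 2.41 (adjusted p = 6.2e-06). Trib3, a pseudokinase that binds Akt, gave -1.24 and -2.22, and Grb14, an adaptor that inhibits the insulin receptor, -1.10 and -1.68. Inpp5d (SHIP1) was not well above background in either fraction at 6 h. It was lower at 6 h in polysomal RNA (-2.40, adjusted p = 0.0032) and in non-polysomal RNA (-1.55, adjusted p = 0.040). Its 0 h means lay 1.92-fold (polysomal) and 1.40-fold (non-polysomal) above the dimmest 6 h signal that counts as measured. These folds make no allowance for the spread between replicates. In non-polysomal RNA at 0 h Inpp5d was well above background on 2 of 3 arrays (SD 0.84). Igfbp1, a binding protein gene that insulin represses in liver, was not well above background in non-polysomal RNA at 0 h. It was higher there at 6 h (3.11, adjusted p = 0.035). Its 6 h mean lay 2.18-fold above the dimmest 0 h signal that counts as measured, again without allowance for the spread between replicates.

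Other high M values were those of Pik3cd, a catalytic PI3-kinase subunit (1.39), Igfbp7 (1.32) and Gsk3a, a kinase that Akt inhibits (1.25), and Rictor, a subunit of mTOR complex 2, had the lowest, -1.27 (adjusted p = 0.0054). At 0 h the highest polysomal excess was that of Gys1 (glycogen synthase, 2.93), Grb10 (an adaptor that inhibits the receptors, 2.83), Map2k1 (a MAP kinase kinase, 2.68) and Igfbp3 (2.61). The lowest values were those of Hras (-2.02), Eif4ebp1 (the translation repressor 4E-BP1, -1.87), Nras (-1.52) and Inppl1 (-1.07). With 75th percentile scaling 16 of the 76 genes were called higher and 15 lower in p0 - np0, and 9 and 9 in p6 - p0. Over all probes it called 4787 higher and 10979 lower of 41158 in p0 - np0, and 3583 and 4073 of 41173 in p6 - p0.

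For each gene, the named gene outside the pathway list with the profile most like it over the 12 arrays was, by Pearson r among 16455 candidates, Ubox5 for Igf1 (0.997), Mon2 for Igf2 (0.998), Acsl4 for Igfbp4 (0.9996), Ccdc93 for Insr (0.999), Atp9b for Igf1r (0.999), Mre11a for Irs1 (0.999), Sf3b1 for Pik3r1 (0.990), Orai2 for Akt1 (0.995) and Snapc2 for Akt2 (0.997). Acsl4, an acyl-CoA synthetase gene, rose by 3.52 in polysomal and 1.82 in non-polysomal RNA. These are the highest of many correlations over the same 12 arrays in 4 groups and are given as a description.

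The cells carried fibroblast markers (9 of 9 well above background on all arrays) and preadipocyte markers (5 of 5), and 5 of 7 mature adipocyte markers, Lep and Cfd on none. Of the markers of other cell types, 0 of 3 endothelial, 1 of 4 epithelial, 1 of 3 macrophage and leukocyte and 2 of 3 muscle markers were well above background on all arrays, Pecam1, Kdr, Cdh1, Epcam and Krt18 on none. The summed endothelial level was 2.53 to 3.00 in the other groups and 5.03 to 5.20 in polysomal RNA at 6 h, through Cdh5. That of mature adipocyte markers was 16.27 to 16.51 in polysomal RNA at 0 h and 16.86 to 16.96 at 6 h. In non-polysomal RNA it was 14.68 to 14.74 and 14.62 to 14.64. The 5 mature adipocyte markers well above background went both ways in polysomal RNA. Cidec gave 1.53 (called higher), Fabp4 0.97 and Adipoq 0.90, but Lpl gave -0.36 and Plin1 -0.91. The summed level of preadipocyte markers was 15.15 to 15.32 in polysomal RNA at 0 h and 16.58 to 16.69 at 6 h, with Cebpb and Dlk1 called higher. In non-polysomal RNA it was 13.10 to 13.23 and 13.54 to 13.68. The other preadipocyte markers went the other way. In polysomal and non-polysomal RNA, Cd34 gave -0.63 and -0.98, Zfp423 -0.40 and -1.30 (the latter called lower) and Pparg -0.05 and -0.32. The sums add signals before the logarithm, so bright markers weigh most, and the preadipocyte markers did not rise as a set. The summed level of macrophage and leukocyte markers was 5.63 to 5.94 in non-polysomal RNA at 0 h and 6.57 to 6.88 at 6 h, and 4.95 to 6.83 and 6.67 to 6.76 in polysomal RNA, with Csf1r called higher in both fractions and Adgre1 and Ptprc well above background on 1 array each. Their part in the results above was not tested. The 5 dimmest spike-in transcripts read 0.83 lower and the 5 brightest 0.09 lower on the 6 h polysomal arrays than on the other arrays. Mean log2 signals were 7.82 to 16.80 for the dimmest and 18.29 to 19.07 for the brightest. Member levels, 3.00 to 14.98, all lay below the brightest 5. The spike-in offset is the mean over all 10 and adds 0.50 to every M.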

How the data were processed

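RNA of 12 sucrose gradient pools was hybridised to 12 one-colour Agilent mouse arrays (45018 spots, 43379 of them non-control). Per the file headers the authors' scanner files come from Feature Extraction 10.7.1.1 and hold, per spot, a background-subtracted processed intensity, the median pixel intensity and marks for outlier and well-above-background spots. The authors also deposited a table of log2 values, which equalled log2 of the median pixel intensity plus a constant per array.

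Log2 of the processed intensity was used without outlier spots (484 values, 0 of member probes; 0 saturated spots), spots of a probe were averaged, and each array was shifted by its mean over 10 spike-in transcripts, as the study normalised to spike-ins. A probe counted as well above background on an array when over 0.5 of its spots were so marked. Probes were named through RefSeq transcript accessions (26690 of 41174, 64.8%). Probes were fitted in R 4.3.3 with limma 3.58.1 (lmFit, eBayes; 4 groups, no block), with Benjamini-Hochberg adjustment over all probes. Replicates are called biological in the study's methods. The number of arrays, 3 per group, limits the precision. Data were simulated for M with 40808 probes, of which 200 were changed. There, 81% of differences of 2.5 and 65% of differences of 1.5 (log2) were called, with 5 unchanged probes called. In the measured data far more probes passed for M at an adjusted p under 0.05, 13166 positive and 1649 negative. The simulated percentages therefore need not hold for these data.

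The primary probe of a gene is its brightest among those well above background on the most arrays. All member probes were named, and of the other pathway genes up to 4 with the highest and up to 4 with the lowest value among those called in each comparison. The genes and lists were chosen with earlier results of these data known. Alternatives were 75th percentile, quantile and straight-line spike-in scaling, the authors' log2 values, normexp, no dim probes, outlier spots kept, a replicate block, a trend in the prior variance, and leaving out each array. Promoters were RefSeq windows of build GRCm38.p6.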

Additional observations from a re-analysis of the deposited data

Results flagged for a closer look

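Igfbp4 probe A_52_P257502 differed in its time change between the fractions, rising by 2.33 in polysomal and by 1.26 in non-polysomal RNA, a difference of 1.06 (limma, adjusted p = 7.2e-05) with the same sign on 3 of 3 slides (1.11, 0.95 and 1.13). It was marked because the time effect differed between the polysomal and non-polysomal groups in a test of the difference itself. The median of that difference over all probes was 0.49.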

How the results depend on the processing

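Of 25 called member differences, 9 stayed called in all 21 alternatives and none changed sign: the primary Irs1 probe and Igfbp4 A_52_P257502 in both time comparisons, Igfbp4 A_51_P398971 in p6 - p0, and p0 - np0 of Igf1r A_51_P318365 and A_51_P474538, Insr A_52_P494514 and Pik3r1 A_52_P307938. The replicate block, the prior trend, the filter on dim probes and the kept outlier spots changed no member call or count. With the block the called member probes were again 1 and 0 (M), 5 and 2 (p6 - p0), 4 and 1 (np6 - np0) and 12 and 0 (p0 - np0). Arrays of a replicate number shared a slide, but the numbers were not shown to pair samples. Of 18 pairs of arrays with the same number, 4 correlated over 0.1 (-0.10 to 0.42), and 8 of 12 arrays correlated best with their own number. These values do not settle whether samples were paired. Normexp over all spots could not be fitted on 3 arrays, whose medians came to 8.32 to 10.19 against 6.28 to 6.81 on the others, and was not carried further; normexp without spots of non-uniform background was added after seeing that. It read the median pixel signal.

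With 75th percentile scaling the member calls became 0 higher and 2 lower for M, 2 higher for p6 - p0, and 5 higher and 2 lower for p0 - np0. Over all probes this scaling called 1545 higher and 1431 lower of 41155 for M and 3583 higher of 41173 for p6 - p0. For p0 - np0 it called 4787 higher and 10979 lower of 41158. With quantile normalization the member calls became 0 and 4 for M, 2 and 1 for p6 - p0, and 7 and 2 for p0 - np0. Over all probes they were then 1268 and 1573 for M, 3204 and 3843 for p6 - p0, and 6949 and 5807 for p0 - np0. With the straight line through the spike-ins 6 member probes were called higher for M, and 10 higher and 1 lower for p6 - p0. Most probes were called higher under this scaling, 26102 of 41155 for M and 26366 of 41173 for p6 - p0, where 789 were called lower. With the authors' log2 values 2 member probes were called higher for M and 1 for np6 - np0, beside 3402 and 2065 of all 41174 probes. With the added normexp the member calls were 2 higher for M, 3 higher and 1 lower for p6 - p0, 1 higher for np6 - np0 and 7 higher for p0 - np0. Over all probes it called 2516 higher for M and 4770 higher and 674 lower for p6 - p0. For np6 - np0 it called 1771 higher, and for p0 - np0 7572. The cause of these changes in the member calls was not tested.

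Signs turned as follows. The member median became -0.25 for M and -0.23 for p6 - p0 with the 75th percentile, and -0.25 and -0.16 with quantile normalization. In p6 - p0 with the 75th percentile, Akt2 A_51_P408044 was -0.23, Akt2 A_52_P2977 -0.36, Igf1r A_51_P474538 -0.45, Pik3r1 A_52_P235476 -0.36, Pik3r1 A_52_P307938 -0.45, Akt1 A_52_P418014 -0.33 and Insr A_52_P494514 -0.48. With quantile normalization the first 5 were -0.26, -0.58, -0.46, -0.33 and -0.31, and Insr A_52_P494514 was -0.29. In p0 - np0, Igf1 A_51_P147942 was -0.66 and -0.69, Igf1 A_52_P351116 -0.61 and -0.41, Akt2 A_51_P408044 -0.033 and -0.054, and Akt2 A_52_P2977 -0.30 and -0.25 under these scalings. M of Igf1 A_51_P147942 was -0.020 and -0.029, and with quantile normalization M was -0.24 for Akt2 A_51_P408044 and -0.0051 for Akt2 A_52_P2977. With the straight line M was 0.48 for Igf1r A_51_P318365, 0.35 for Igf1r A_51_P474538, 0.088, 0.014 and 0.041 for Pik3r1 A_51_P511236, A_52_P235476 and A_52_P307938, 0.61 for Akt1 A_52_P418014 and 0.63 for Insr A_52_P494514, and p6 - p0 of Igf1r A_51_P318365 was 0.42. All of these lay below the medians over all probes under that scaling, 1.42 for M and 1.42 for p6 - p0. Counted here are sign changes of values whose adjusted p was under 0.05 in either setting; among values passing in neither, 7, 7 and 6 of 84 also changed sign under the 3 scalings, 5 with the authors' values, 5 with the added normexp and 21 of 1008 when an array was left out.

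Leaving out 1 array gave 1 to 2 member probes called higher for M: 2 without 0 h np replicate 3, 0 h p replicate 2 or 3, 6 h np replicate 1 or 3, or 6 h p replicate 3, through Igfbp4 A_51_P398971. For p6 - p0, 1 to 2 were called lower, the second Irs1 probe being lost without any 1 of the 6 polysomal arrays, and for np6 - np0 1 to 2, 2 without 6 h np replicate 3.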
